A study of Homo sapiens with 16 samples.

Results

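The genes described here encode the receptors for the neurotransmitters GABA, glutamate, glycine, acetylcholine, serotonin, dopamine, adrenaline and noradrenaline. They were taken by symbol alone, as every protein-coding gene whose symbol places it in one of these receptor families. The rule for these genes holds no measured value, but it was set with earlier results of these data known. The table of counts held 95 of them among 34228 genes. The annotation (GENCODE 44) lists 103, and the other 8 (*GABRR3*, *DRD3*, *HTR3D*, *HTR1A*, *GABRA6*, *HTR1E*, *GRM3* and *CHRNB3*) had no row in the table and were not analysed here. RNA-Seq was available for 8 libraries from human melanoma cells, those of the lines 451Lu-R and 1205Lu-R, which had been made resistant to BRAF inhibitors (BRAFi-R) by growth in rising doses of PLX4032 (vemurafenib). Each line had received corin at 2.5 μM, or its vehicle DMSO, during 24 h, with 2 libraries per group, so all 4 groups share the resistant background. Corin is a single molecule that blocks both enzymes of the CoREST repressor complex, the histone deacetylases HDAC1 and HDAC2 and the histone demethylase LSD1. The resistant lines are maintained in PLX4032, and the study's methods list the inhibitor, alone or with corin, as separate treatments from the DMSO and corin described here.

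Ionotropic receptors are channels built from several subunits, each with a gene of its own, and metabotropic receptors signal through G proteins. Neurons express many of these genes, and cells of other lineages keep most of them silent, in part through the repressor REST, which binds a DNA element named RE1 and recruits CoREST. Melanocytes descend from the neural crest, which also gives rise to peripheral neurons and glia, and a small number of these receptors, such as β-adrenergic and muscarinic receptors, are known in the melanocyte lineage.

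Because the RE1 element links these genes to CoREST, the genome (GRCh38) was searched within 5000 bases of the start of each gene for both parts of the element at its usual spacing, the letters AGCACCNNGGACAG on either strand. Of 91 receptor genes searched, 6 (6.59%) held a match, against 176 of 17521 protein-coding genes (1.0%). The other 4 were left out of the search for their chromosome. A match is a run of letters, not a site shown to be bound in these cells. Distances, also those given as bases into the gene, are counted from the start of the main transcript. For *GRIN1* that start lies inside the annotated gene. The matches in 4 of the 6 genes are shown 5′ to 3′ on the strand that carries the letters, with these parts and the bases between them in capitals, because the counts of these genes are followed below.
*GRIN1*, the obligatory subunit of NMDA glutamate receptors, chr9:137139257-137139282, plus strand, 116 bases into the gene in an exon outside the coding sequence: cgcttcAGCACCGCGGACAGcgccgg
*GRIA2*, a subunit of AMPA glutamate receptors, chr4:157220386-157220411, minus strand, at -329 bases from the start of the main transcript and within an intron of a longer one: cctttcAGCACCGAGGACAGcgcctc
*CHRNB2*, a β subunit of neuronal nicotinic receptors, chr1:154567951-154567976, plus strand, 186 bases into the gene in an exon outside the coding sequence: ggcttcAGCACCACGGACAGcgcccc
*HTR5A*, a serotonin receptor, chr7:155070192-155070217, plus strand, at -119 bases from the start of the main transcript and the nearest of 3 matches there: cgcagcAGCACCGCGGACAGccccaa

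The libraries held 9516687 to 11797788 estimated read counts, and levels are given as CPM, the counts scaled to the total of each library. The melanocyte genes (*MITF*, *SOX10*, *PMEL*, *MLANA*, *TYR*, *DCT*) summed to 13234.59 to 13305.71 CPM in 451Lu-R with DMSO and 11396.32 to 11438.25 CPM with corin. Most of that sum was *PMEL*, and the genes did not move together. *MITF* was at 781.81 and 803.95 CPM with DMSO and 287.17 and 286.1 CPM with corin. *SOX10* was at 772.81 and 743.27 CPM with DMSO and 231.81 and 235.96 CPM with corin. All were lower with corin except *DCT*, which was higher, and none was called. In 1205Lu-R the melanocyte genes summed to 7.25 to 8.38 and 16.65 to 18.77 CPM, with *SOX10* and *TYR* at 0 in every library. *AXL* and *NGFR*, markers of undifferentiated melanoma, summed to 0.83 to 1.51 CPM with DMSO and 350.47 to 357.2 CPM with corin in 451Lu-R, nearly all of it *NGFR*, and both were called as risen. In 1205Lu-R, *AXL* was at 947.51 and 976.32 CPM with DMSO and 480.09 and 471.09 CPM with corin, while *NGFR* was called as risen, from 5.6 and 6.12 CPM to 205.94 and 199.05 CPM. Of 7 neuron markers, 3 were called as risen with corin in 451Lu-R, as was 1 in 1205Lu-R. Their sum moved from 207.29 to 209.88 CPM up to 731.58 to 734.72 CPM and from 400.21 to 401.39 CPM up to 902.34 to 914.49 CPM. Most of that sum was *TUBB3*, while *ELAVL3* stayed at or under 0.21 CPM in every library, and the part of these markers in the results was not tested. The 3 fibroblast markers summed to 49.77 to 53.47 CPM with DMSO and 111.47 to 117.39 CPM with corin in 451Lu-R. For 1205Lu-R the sums were 195.55 to 195.94 and 92.23 to 95.29 CPM, nearly all of it *PDGFRA*. Endothelial, keratinocyte and leukocyte markers summed to at most 9.81 CPM per list in any library. In bulk samples, fewer cells of a type and less RNA per cell cannot be told apart.

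With DMSO, few of the receptor genes were detected, and more were detected with corin in both lines. A gene was counted as detected in a group if it had at least 10 counts in both libraries. In 451Lu-R, 16 of 95 receptor genes (16.8%) were detected with DMSO and 44 (46.3%) with corin, while the share over all protein-coding genes moved from 63.6% to 69.8%. In 1205Lu-R, 16 (16.8%) were detected with DMSO and 35 (36.8%) with corin, and the share over all protein-coding genes moved from 63.8% to 69.4%. No receptor gene detected with DMSO was lost with corin in either line, and 451Lu-R gained 28 and 1205Lu-R gained 19. The gains were spread over the families, as the plot of detected genes by family shows.

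**Figure D1:**
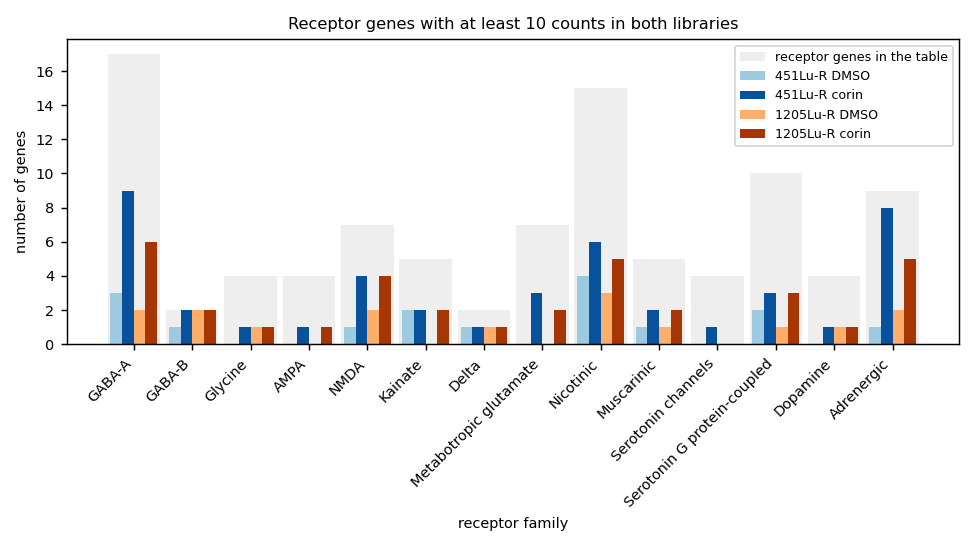
Number of receptor genes with at least 10 estimated counts in both libraries of a group, by receptor family. Grey bars give the genes of the family in the table, and coloured bars give the detected genes in 451Lu-R and 1205Lu-R with DMSO (light) and with corin (dark). Adrenergic receptor genes went from 1 to 8 of 9 in 451Lu-R and from 2 to 5 of 9 in 1205Lu-R.

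Only 7 receptor genes were detected in both lines with DMSO, and the same 7 were the ones detected in all 4 groups. They were *CHRM3*, *CHRNA5*, *CHRNB1*, *GABBR1*, *GABRG3*, *GRID1* and *HTR7*. With corin, 30 were detected in both lines, and 11 of these were detected in neither line with DMSO, among them *ADRA2A*, *ADRB1*, *CHRM4*, *GABRA2*, *GABRB2*, *GRIA2*, *GRIN1*, *GRM8* and *HTR1D*. The remaining 46 receptor genes were detected in no group, and 2 of them, *GABRA4* and *GABRR1*, had no count in any library.

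The summed level of the receptor genes behaved differently in the lines. In 451Lu-R it was 232.1 and 228.1 CPM in the DMSO libraries and 601.4 and 608.2 CPM in the corin libraries. In 1205Lu-R it was 472.3 and 487.7 CPM with DMSO and 469.9 and 449.8 CPM with corin, so the sum was no higher although more genes were detected. In that line 2 abundant genes, *GABBR2* and *DRD2*, were lower with corin while many scarce ones were higher. The heat map of 46 of the 49 genes detected in at least 1 group shows this per library.

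**Figure D2:**
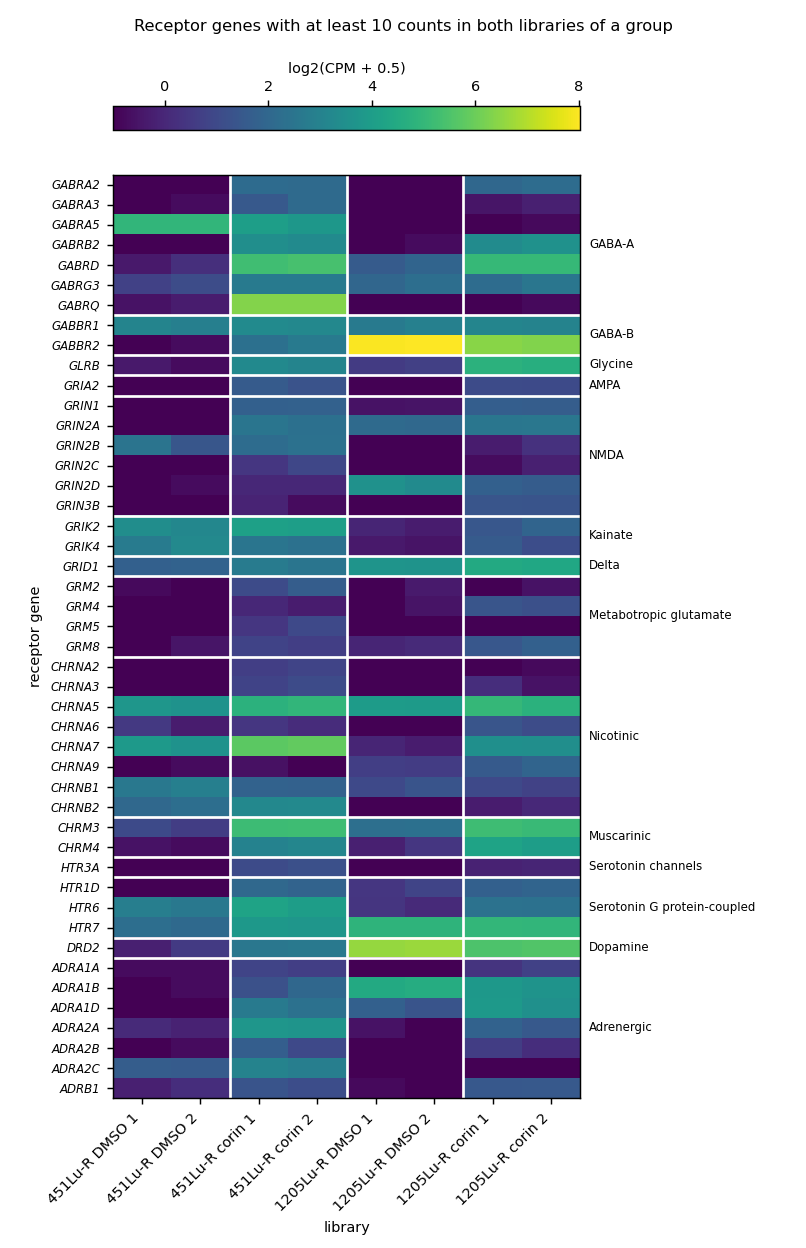
Level of 46 of the 49 receptor genes detected in at least 1 group (rows, by family) in the 8 libraries (columns), as log2(CPM + 0.5). Dark cells are at or near 0. *GABBR2* and *DRD2* are the brightest rows in 1205Lu-R with DMSO. Many other rows turn from dark to blue or green between DMSO and corin, more of them for 451Lu-R than for 1205Lu-R.

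The effect of corin in each line was tested with edgeR (quasi-likelihood, 2-sided, over all genes), and a gene was called at a 4-fold change or more with a false discovery rate (FDR) under 0.001. In 451Lu-R, 29 of the 95 receptor genes (30.5%) were called as risen, where 8.88% of all 18159 protein-coding genes in the table were, or 12.4% of the genes tested. No receptor gene was called as fallen, and 1.56% of protein-coding genes (2.72% of genes tested) were. At an FDR under 0.05 with no limit on fold change, 38 of the 42 receptor genes tested rose (90.5%), beside 41.3% of all genes tested. Of the same 42, 3 fell (7.14%), beside 38.6%. In 1205Lu-R, 22 of 95 (23.2%) were called as risen, against 7.72% of protein-coding genes and 11.3% of genes tested. None was called as fallen, against 0.837% of protein-coding genes and 1.43% of genes tested. At an FDR under 0.05, 27 of the 36 receptor genes tested rose (75.0%), beside 40.4% of all genes tested, and 4 fell (11.1%), beside 37.8%. Many receptor genes entered the test only through counts in the corin libraries. The shares of those tested are therefore not comparable with those of all genes tested. In both lines, 15 (15.8%) were called as risen, against 3.98% of protein-coding genes. These comparisons in the 2 lines share no library.

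Many of these calls started from almost no counts (20 of 29 for 451Lu-R, but 10 of 22 for 1205Lu-R). In 451Lu-R, 65 receptor genes had 3 or fewer counts over both DMSO libraries, and 20 of these (30.8%) were called as risen, against 11.9% of the protein-coding genes with such counts. In 1205Lu-R it was 10 of 66 (15.2%) against 8.42%. Among the 16 receptor genes detected with DMSO, 3 were called as risen in 451Lu-R (4.56% of protein-coding genes so detected were) and 4 in 1205Lu-R (4.45%), while none was called as fallen (2.45% and 1.31% of those protein-coding genes). The median log2 fold change of those 16 was 1.13 in 451Lu-R and 0.33 in 1205Lu-R, beside 0.03 over all genes tested in each line. Of the genes that could be tested, 26 of 42 (451Lu-R) and 20 of 36 (1205Lu-R) had fewer than 10 counts in a DMSO library, and many of these entered the test only because corin libraries held counts. Without regard to any filter, both corin libraries exceeded both DMSO libraries in CPM for 57 of 95 receptor genes (60.0%) in 451Lu-R and 51 (53.7%) in 1205Lu-R, against 38.5% and 41.4% of protein-coding genes. Both were lower for 5 (5.26%) and 6 (6.32%), against 36.0% and 30.4%. A gene with no count with DMSO cannot be lower with corin, and 65 and 66 of the 95 had 3 or fewer counts over both DMSO libraries. The shares that fell among all 95, here and in the calls above, are therefore not comparable with those of all protein-coding genes. The scatter of levels shows the genes at the left edge that rose from 0. Where a group had no count in either library, a fold change is given as a lower bound that sets the group at 3 counts, and where it had 1 to 3 counts as the ratio with its 95% exact interval. These bounds and intervals cover counting error only.

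**Figure D3:**
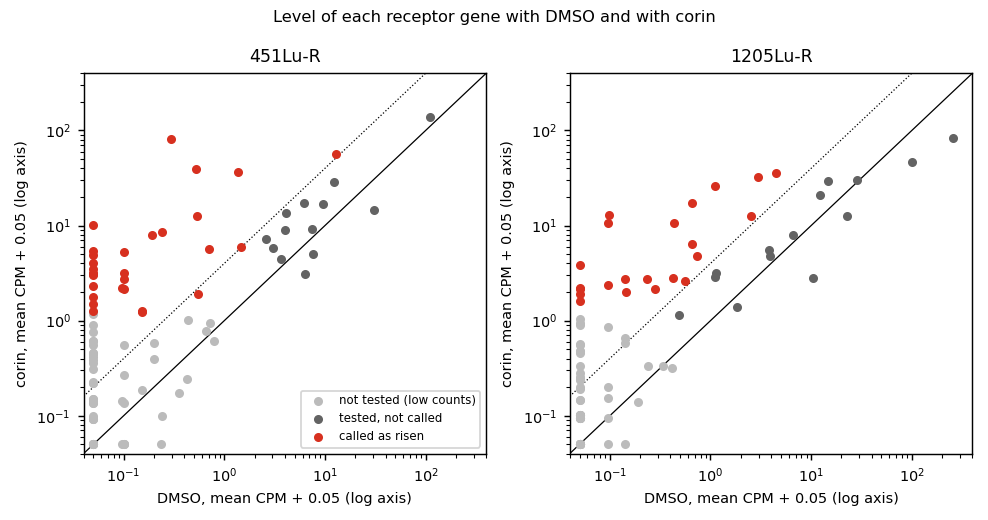
Mean CPM (plus 0.05, log axes) of each receptor gene with corin against DMSO in 451Lu-R and 1205Lu-R, 2 libraries per mean. The solid line marks no change and the dotted line a 4-fold rise. Red points are the 29 and 22 genes called as risen, and no gene was called as fallen.

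GABA-A receptors are chloride channels of 5 subunits, and their 17 genes in the table gave the largest summed change in 451Lu-R. The family summed to 143.45 and 145.03 CPM with DMSO and 298.83 and 307.18 CPM with corin in that line, and to 6.47 and 8.4 CPM with DMSO and 66.85 and 70.6 CPM with corin in 1205Lu-R. Of the 17, 7 were called as risen in 451Lu-R and 5 in 1205Lu-R, beside 8.88% and 7.72% of all protein-coding genes. *GABRQ*, the θ subunit, had 2 and 3 counts in the 451Lu-R DMSO libraries and 950 and 809 with corin. Its log2 fold change was 8.40 (SE 0.17, adjusted p = 1.56e-19), and in 1205Lu-R it had 0, 0, 0 and 1 counts. With 3 groups near 0, the difference in response between the lines could not be estimated (adjusted p = 0.996 for the interaction). *GABRD*, the δ subunit of receptors outside the synapse, had 3 and 6 counts under DMSO against 449 and 412 under corin in 451Lu-R, and 28 and 34 under DMSO against 309 and 364 under corin in 1205Lu-R. It rose in both lines, by a log2 fold change of 6.56 (SE 0.20, adjusted p = 9.68e-17) and 3.43 (SE 0.14, adjusted p = 1.18e-15). No DMSO library reached the level of any corin library.

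Other GABA-A subunits were silent with DMSO in both lines. *GABRB2* had no count in the 451Lu-R DMSO libraries against 125 and 95 under corin, at least 69.2-fold higher. Its counts in 1205Lu-R were 0 and 1 under DMSO against 93 and 127 under corin, a ratio of 231.3 (95% interval 41.1 to 9176). *GABRA2* had no count under DMSO against 47 and 39 under corin in 451Lu-R (at least 27.1-fold) and 34 and 45 in 1205Lu-R (at least 27.7-fold). Both were called as risen in both lines.

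Other GABA-A genes were present in 451Lu-R before treatment, and they did not move together. *GABRA5*, an α subunit, fell in 451Lu-R, from 333 and 294 counts with DMSO to 190 and 131 with corin (log2 fold change -0.95, SE 0.10, adjusted p = 3.61e-08), and had 0, 0, 0 and 1 counts in 1205Lu-R. *GABRG3*, a γ subunit, was called as risen in 451Lu-R, where it had 13 and 16 counts under DMSO against 70 and 60 under corin (2.17, SE 0.27, adjusted p = 4.03e-07). The 1205Lu-R libraries held 38 and 46 counts under DMSO against 38 and 60 under corin, and the groups overlapped (0.22, SE 0.23, adjusted p = 0.400).

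GABA-B receptors are pairs of 1 subunit that binds GABA (*GABBR1*) and 1 that couples to the G protein (*GABBR2*). *GABBR2* had 0 and 1 counts under DMSO against 53 and 60 under corin in 451Lu-R, a ratio of 106.6 (95% interval 18.8 to 4248). In 1205Lu-R it was the most abundant receptor gene, with 2809 and 2764 counts with DMSO, and it fell to 820 and 887 with corin (log2 fold change -1.71, SE 0.040, adjusted p = 8.49e-20), which is under the 4-fold needed for a call. *GABBR1* had 87 and 67 counts under DMSO against 112 and 87 under corin in 451Lu-R, where the log2 fold change was 0.38 (SE 0.16, adjusted p = 0.0302). The groups met at 87 in counts but did not overlap in CPM (7.98 and 6.93 against 9.49 and 8.70). The same gene in 1205Lu-R had 66 and 75 counts under DMSO against 77 and 85 under corin (0.20, SE 0.17, adjusted p = 0.277). Glycine receptors are chloride channels of the same build, and their β subunit *GLRB*, which anchors the channel at the synapse, was the only one of their 4 genes detected. It had 3 and 1 counts under DMSO against 109 and 79 under corin in 451Lu-R (5.48, SE 0.38, adjusted p = 6.12e-11), and 11 and 12 under DMSO against 262 and 276 under corin in 1205Lu-R (4.53, SE 0.19, adjusted p = 1.34e-15). The 3 genes of the α subunits that bind glycine had at most 5 counts in any library.

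Glutamate receptors fall into the AMPA, NMDA, kainate and delta channels and the metabotropic receptors, and their genes were mostly scarce. *GRIN1*, which every NMDA receptor contains, had no count in the 451Lu-R DMSO libraries against 34 and 30 under corin, at least 20.1-fold higher. In 1205Lu-R it had 2 and 2 counts under DMSO against 26 and 30 under corin (log2 fold change 3.73, SE 0.51, adjusted p = 9.29e-07). Its partners, the GluN2 subunits that bind glutamate, differed. *GRIN2A* had no count under DMSO against 62 and 45 under corin in 451Lu-R (at least 33.7-fold), but 43 and 39 under DMSO against 51 and 61 under corin in 1205Lu-R (0.45, SE 0.21, adjusted p = 0.0566). *GRIN2D* had 0 and 1 counts under DMSO against 6 and 5 under corin in 451Lu-R, too few to test. In 1205Lu-R it fell from 124 and 102 counts to 28 and 29 (-1.98, SE 0.19, adjusted p = 4.15e-09), a 3.95-fold change that stopped just short of a call, and it was called as fallen without 1205Lu-R DMSO replicate 2 or corin replicate 1. *GRIN3B*, a subunit that binds glycine, had 5 and 1 counts with corin in 451Lu-R and none with DMSO, and went from none to 20 and 23 counts in 1205Lu-R (at least 15.1-fold). Its exons overlap those of *TMEM259* on the other strand, and *TMEM259* had 857 to 863 counts with DMSO and 778 to 832 with corin in 1205Lu-R.

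*GRIA2*, the subunit that sets the low calcium permeability of AMPA receptors, had no count with DMSO in either line. With corin it had 30 and 20 counts in 451Lu-R (at least 15.7-fold) and 15 and 17 in 1205Lu-R (at least 11.2-fold), and it was called as risen in both. The other 3 AMPA genes had 0 or 1 counts per library, except *GRIA1* with 11 and 7 counts in 1205Lu-R with corin. The kainate subunit *GRIK4* moved in opposite directions. It fell in 451Lu-R, from 69 and 86 counts to 62 and 47 (log2 fold change -0.50, SE 0.20, adjusted p = 0.0285), and rose in 1205Lu-R, from 3 and 2 counts to 24 and 19 (3.05, SE 0.54, adjusted p = 2.51e-05). The call in 1205Lu-R ended in 3 of 9 alternative fits, among them those without 1205Lu-R DMSO replicate 2 or corin replicate 1. *GRID1*, the δ1 subunit of the delta receptors, which bind cerebellins rather than opening to glutamate, had 32 and 30 counts under DMSO against 73 and 52 under corin in 451Lu-R (1.02, SE 0.23, adjusted p = 4.44e-04). Its counts in 1205Lu-R were 136 and 128 under DMSO against 209 and 223 under corin (0.71, SE 0.11, adjusted p = 5.70e-06). *GRM8*, a metabotropic receptor that lowers cyclic AMP, had 0 and 2 counts under DMSO against 15 and 11 under corin in 451Lu-R (ratio 12.3, 95% interval 3.07 to 106.6), and 5 and 6 under DMSO against 21 and 32 under corin in 1205Lu-R (2.24, SE 0.43, adjusted p = 6.43e-05). The call of *GRM8* ended in 4 of 8 alternative fits for 451Lu-R and in 4 of 9 for 1205Lu-R. Among these were fits without 451Lu-R DMSO replicate 1 or corin replicate 2, and without either DMSO library or corin replicate 2 of 1205Lu-R.

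Muscarinic acetylcholine receptors gave rises of similar end level in both lines. The family of 5 genes summed to 1.93 and 1.36 CPM with DMSO and 45.2 and 45.73 CPM with corin in 451Lu-R, and to 4.81 and 5.43 CPM with DMSO and 56.05 and 50.99 CPM with corin in 1205Lu-R. *CHRM3*, which raises intracellular calcium, had 17 and 10 counts under DMSO against 429 and 367 under corin in 451Lu-R (log2 fold change 4.88, SE 0.16, adjusted p = 2.66e-16). The 1205Lu-R libraries held 48 and 49 under DMSO against 349 and 380 under corin (2.91, SE 0.12, adjusted p = 2.10e-15). *CHRM4*, which lowers cyclic AMP, had 2 and 1 counts under DMSO against 89 and 84 under corin in 451Lu-R (ratio 54.4, 95% interval 18.3 to 266.4). The same gene in 1205Lu-R had 4 and 9 under DMSO against 175 and 174 under corin (4.72, SE 0.25, adjusted p = 1.52e-13). *CHRM4* shares exonic bases with *MDK* on the other strand, which had 1 to 4 counts in every 451Lu-R library and 75 to 102 in 1205Lu-R, where its log2 fold change was 0.28 (adjusted p = 0.101).

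Nicotinic acetylcholine receptors are cation channels of 5 subunits, and 3 of their 15 genes were called as risen in 451Lu-R and 2 in 1205Lu-R. Over all protein-coding genes the shares were 8.88% and 7.72%, and with so few genes nothing particular to the nicotinic family is read from its counts. *CHRNA7*, which forms channels on its own, had 153 and 114 counts under DMSO against 637 and 578 under corin in 451Lu-R (log2 fold change 2.20, SE 0.090, adjusted p = 1.35e-14), and 5 and 3 under DMSO against 104 and 115 under corin in 1205Lu-R (4.73, SE 0.30, adjusted p = 2.88e-12). *CHRFAM7A* carries a near-identical copy of part of this gene and was also higher with corin. It had 7 and 3 counts under DMSO against 51 and 41 under corin in 451Lu-R (3.19, adjusted p = 2.57e-07). In 1205Lu-R it had 0 and 5 under DMSO against 18 and 34 under corin (3.31, adjusted p = 4.27e-05). The split of reads between *CHRNA7* and *CHRFAM7A* is uncertain. *CHRNA5*, an accessory subunit, rose in both lines but was not called. It had 139 and 113 counts under DMSO against 320 and 303 under corin in 451Lu-R (1.32, SE 0.10, adjusted p = 3.91e-10), and 164 and 156 under DMSO against 301 and 297 under corin in 1205Lu-R (0.90, SE 0.10, adjusted p = 6.51e-08). *CHRNA3*, which overlaps *CHRNA5* on the other strand, had no count with DMSO, 15 and 16 with corin in 451Lu-R (at least 9.75-fold) and 6 and 2 in 1205Lu-R.

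*CHRNB2* had 40 and 42 counts under DMSO against 104 and 89 under corin in 451Lu-R (1.25, SE 0.18, adjusted p = 3.63e-06). In 1205Lu-R it had none under DMSO against 3 and 6 under corin (at least 3.15-fold), too few to test. *CHRNA6* had 10 and 3 counts under DMSO against 10 and 6 under corin in 451Lu-R, and none under DMSO against 20 and 18 under corin in 1205Lu-R (at least 13.3-fold, called as risen). *CHRNB1*, a subunit of the muscle receptor, was lower with corin in 451Lu-R, at 61 and 67 counts under DMSO against 36 and 30 under corin (-0.94, SE 0.23, adjusted p = 8.28e-04). Its counts in 1205Lu-R were 17 and 22 under DMSO against 14 and 14 under corin (-0.48, SE 0.37, adjusted p = 0.246). The strand of the counting is not stated, so for these overlapping genes reads of the partner cannot be told apart by strand.

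Of the receptors for monoamines, the adrenergic family had the largest share of genes called as risen, 7 of 9 for 451Lu-R against 4 of 9 for 1205Lu-R. Over all protein-coding genes the shares were 8.88% and 7.72%. *ADRA2A*, which lowers cyclic AMP, had 6 and 4 counts under DMSO against 153 and 123 under corin in 451Lu-R (log2 fold change 4.77, SE 0.26, adjusted p = 1.75e-12), and 2 and 0 under DMSO against 29 and 26 under corin in 1205Lu-R (ratio 28.9, 95% interval 7.63 to 244.7). *ADRB1*, a β receptor that raises cyclic AMP, had 4 and 6 counts under DMSO against 24 and 17 under corin in 451Lu-R (2.02, SE 0.46, adjusted p = 4.78e-04), just past the 4-fold limit. That call ended in 8 of 9 alternative fits, among them each fit with 1 of the 4 libraries left out. With a library left out, the log2 fold change ran from 1.67 to 2.41. In 1205Lu-R *ADRB1* had 1 and 0 counts under DMSO against 22 and 26 under corin (ratio 50.5, 95% interval 8.63 to 2034).

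The α1 receptors raise intracellular calcium. *ADRA1D* had no count under DMSO against 71 and 46 under corin in 451Lu-R (at least 36.8-fold), and 32 and 22 under DMSO against 134 and 124 under corin in 1205Lu-R (2.25, SE 0.20, adjusted p = 1.12e-09). *ADRA1B* had 0 and 1 counts under DMSO against 22 and 35 under corin in 451Lu-R (ratio 53.8, 95% interval 9.27 to 2161). In 1205Lu-R, where it was abundant, it fell from 239 and 248 counts to 128 and 132 (-0.91, SE 0.11, adjusted p = 1.74e-07).

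*DRD2*, the dopamine receptor that lowers cyclic AMP, followed the pattern of *GABBR2*. It had 4 and 9 counts under DMSO against 64 and 58 under corin in 451Lu-R (log2 fold change 3.22, SE 0.35, adjusted p = 5.26e-08). The 1205Lu-R libraries held 1074 and 1088 counts with DMSO and fell to 428 and 529 with corin (-1.18, SE 0.053, adjusted p = 7.19e-15). Among serotonin receptors, *HTR7*, which raises cyclic AMP, rose in 451Lu-R without being called, from 47 and 36 counts to 162 and 130 (1.83, SE 0.16, adjusted p = 2.89e-09), and had 316 and 305 counts under DMSO against 294 and 332 under corin in 1205Lu-R (0.01, SE 0.079, adjusted p = 0.911). *HTR1D*, which lowers it, had no count under DMSO against 43 and 32 under corin in 451Lu-R (at least 23.6-fold), and 9 and 14 under DMSO against 28 and 36 under corin in 1205Lu-R (1.46, SE 0.35, adjusted p = 7.52e-04). *HTR3A*, the subunit common to serotonin-gated channels, had no count with DMSO in either line, 19 and 18 with corin in 451Lu-R (at least 11.6-fold) and 4 and 5 in 1205Lu-R (at least 3.15-fold, not tested). The panels of 12 receptor genes set those that differed between the lines beside those that rose in both.

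**Figure D4:**
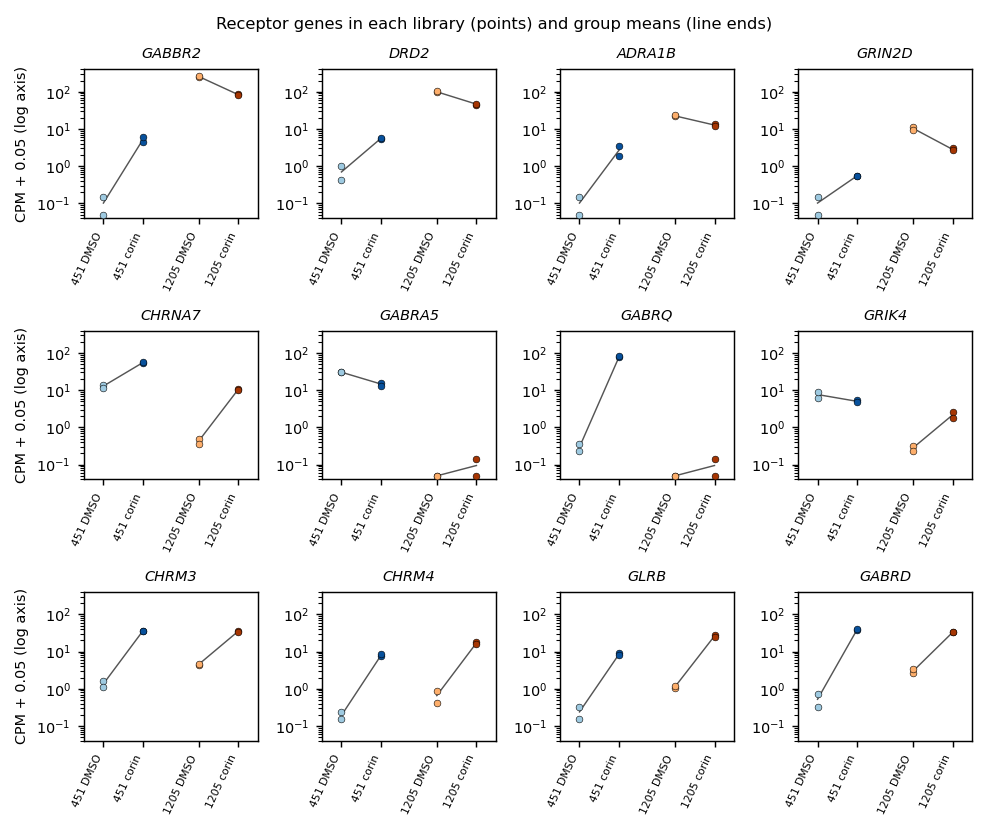
Level of 12 receptor genes in each library, as CPM plus 0.05 on a log axis. Points are libraries and lines join the means of DMSO and corin within a line. *GABBR2*, *DRD2*, *ADRA1B* and *GRIN2D* start high in 1205Lu-R and are lower with corin there, while *CHRM3*, *CHRM4*, *GLRB* and *GABRD* are higher with corin in both lines.

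The lines carried different receptor genes before treatment. With DMSO, 10 receptor genes were called as higher in 1205Lu-R than in 451Lu-R, and 9 as lower, where 10.1% and 10.6% of all genes tested were called in these directions. Over the 95 receptor genes these are 10.5% and 9.47%, beside 6.62% and 6.51% of protein-coding genes. *GABBR2* was higher in 1205Lu-R by a ratio of 5285 (95% interval 948.2 to 208800), and *DRD2* by a log2 fold change of 7.38 (SE 0.14, adjusted p = 4.11e-24). *ADRA1B* was higher by a ratio of 461.8 (82.5 to 18280), *GRIN2D* by 214.3 (38.1 to 8502), and *GRIN2A* at least 25.9-fold. In the other direction, *GABRA5* was lower in 1205Lu-R at least 220.4-fold, *CHRNB2* at least 28.8-fold and *GRIK4* by a log2 fold change of -4.86 (SE 0.39, adjusted p = 2.39e-11). The GABA-A genes went both ways, since *GABRD* was higher in 1205Lu-R (2.78, SE 0.44, adjusted p = 2.81e-06). Cell line and any difference in handling between the lines cannot be told apart.

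Levels of different genes were compared as CPM per kb of exon. The order leaves out the receptor genes that are not reported here. With DMSO, the highest in 451Lu-R was *GABRA5* at 8.45 ± 0.024 (SD, n = 2), then *CHRNA5* at 3.38 ± 0.21 and *HTR6* at 1.63 ± 0.22, which overlapped *CHRNB1* at 1.45 ± 0.22. With corin, *GABRQ* led at 12.5 ± 0.036, before *CHRNA5* at 7.93 ± 0.63 and *GABRD* at 7.17 ± 0.41. *GABRQ* was not among the 10 highest with DMSO. In 1205Lu-R with DMSO, *GABBR2* at 35.0 ± 0.62 and *DRD2* at 24.2 ± 0.92 stood above *HTR7* at 8.25 ± 0.036, *ADRA1B* at 7.14 ± 0.39 and *CHRNA5* at 4.07 ± 0.032. With corin, *GABBR2* at 11.3 ± 0.61 and *DRD2* at 11.2 ± 0.45 did not differ beyond their spread. Below them, *HTR7* (8.76 ± 0.20) overlapped *CHRNA5* (8.06 ± 0.95), which overlapped *GLRB* (7.72 ± 0.56). Per kb of the longest annotated transcript, *GABRD* ranked first in 451Lu-R with corin and *DRD2* in 1205Lu-R with corin.

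**Figure D5:**
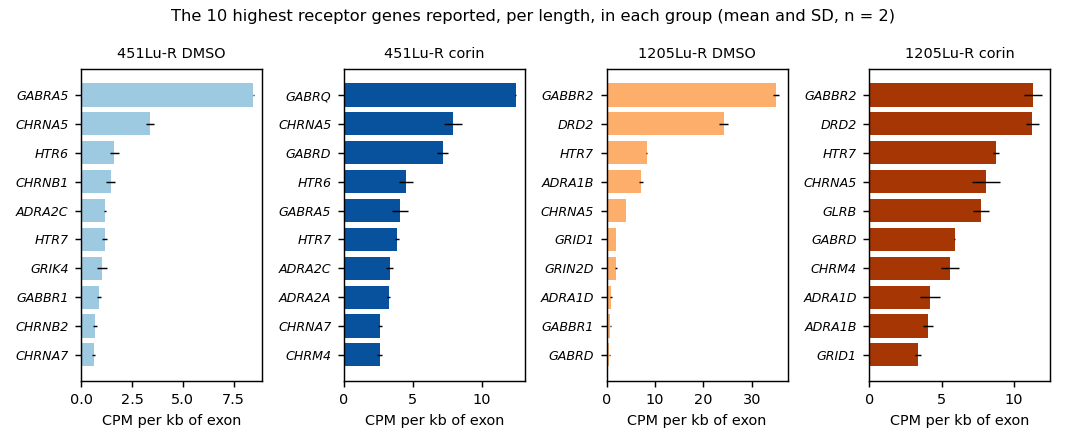
The 10 receptor genes with the highest mean level in each group, among those reported here, in CPM per kb of exon (mean and SD, n = 2), with a separate scale per panel. *GABRA5* leads in 451Lu-R with DMSO and *GABRQ* with corin, while *GABBR2* and *DRD2* lead in 1205Lu-R with DMSO and with corin.

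The response to corin differed between the lines for part of the receptor genes. By the interaction of line and treatment over all 8 libraries, 4 receptor genes were called as responding more upward in 1205Lu-R (2.43% of genes tested were) and 9 as responding more downward (3.13%). Over the 95 receptor genes these are 4.21% and 9.47%, beside 1.86% and 2.65% of protein-coding genes. At an FDR under 0.05, 9 of the 49 receptor genes tested (18.4%) were past the threshold upward, beside 22.6% of all genes tested. Downward it was 15 (30.6%), beside 27.1%. At this threshold the shares are near those of all genes, and nothing particular to receptor genes is read from them. The 4 called upward included *CHRNA6*, *CHRNA7* and *GRIK4*, each of which had more counts in 451Lu-R than in 1205Lu-R with DMSO. The 9 called downward were *ADRA1B*, *ADRA1D*, *CHRM3*, *DRD2*, *GABBR2*, *GABRD*, *GRIN2A*, *GRIN2D* and *HTR1D*, each of which had more counts in 1205Lu-R with DMSO. The starting level enters both the difference with DMSO and the response, because they share the DMSO libraries, so the counts are given side by side and no relation is drawn. The call of *CHRNA6* ended in 9 of 13 alternative fits, among them those with any library left out except 451Lu-R DMSO replicate 2. That of *CHRM3*, at 4-fold, ended in 6 of 13. Among these were fits without 451Lu-R DMSO replicate 2 or either corin library, and without replicate 2 of DMSO or corin in 1205Lu-R. Those of *ADRA1D*, *GRIN2D* and *HTR1D* ended without 451Lu-R DMSO replicate 1, which left 6 downward calls.

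Genes that make, carry and anchor the transmitters were read from the same fits, as lists of 2 to 22 genes. The counts of each list called as risen stand beside 8.88% (451Lu-R) and 7.72% (1205Lu-R) of all protein-coding genes, and with so few genes per list nothing particular to a list is read from them. For GABA, 3 of 10 were called as risen in each line, among them *ABAT*, which degrades GABA, at log2 fold changes of 2.14 (451Lu-R, adjusted p = 1.31e-14) and 3.61 (1205Lu-R, adjusted p = 2.59e-11). *SLC32A1*, the vesicular GABA carrier, went from no count to 45 and 38 in 451Lu-R (at least 26.1-fold), and *GAD1*, which makes GABA, from 9 and 6 to 87 and 86 in 1205Lu-R (3.51, adjusted p = 2.99e-10). For glutamate, 3 of 10 were called as risen in 451Lu-R, against 4 of 10 in 1205Lu-R. *SLC17A7*, a vesicular glutamate carrier, went from 18 and 9 counts to 289 and 242 in 451Lu-R (4.30, adjusted p = 2.68e-14) and from none to 43 and 45 in 1205Lu-R (at least 30.8-fold).

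Among 22 auxiliary and scaffold proteins of glutamate receptors, 7 were called as risen in 451Lu-R, and 2 were in 1205Lu-R, a share near that of all protein-coding genes. At an FDR under 0.05, 451Lu-R had 15 of the 19 tested up and 2 down, beside 41.3% and 38.6% of all genes tested. The tested genes of the list had 0.90 as their median log2 fold change. The same threshold gave 8 up and 7 down of 17 tested for 1205Lu-R, beside 40.4% and 37.8%, with a median of 0.17. In 1205Lu-R these counts are near the shares of all genes. *HOMER3*, a postsynaptic scaffold, fell in both lines without being called (-1.74, adjusted p = 4.51e-13, and -1.25, adjusted p = 6.06e-16). The AMPA auxiliary subunit *CACNG4* went from no count to 148 and 118 in 451Lu-R (at least 83.7-fold) and had at most 1 count in 1205Lu-R libraries, and *SHANK2*, another scaffold, was called in both lines. For acetylcholine, beside 8.88% (451Lu-R) and 7.72% (1205Lu-R) of all protein-coding genes, 2 of 12 were called as risen in each line. These were *ACHE*, which degrades it (5.58, adjusted p = 2.35e-11), and its vesicular carrier *SLC18A3* in 451Lu-R, and *LRP4* and *DOK7*, which serve the nerve-muscle junction, in 1205Lu-R. For monoamines, 1 of 14 was called as risen in 451Lu-R, no larger a share than over all protein-coding genes, and 3 were in 1205Lu-R. *TPH2*, the neuronal enzyme of serotonin synthesis, was called in both lines (3.5, adjusted p = 2.38e-10, and 4.87, adjusted p = 2.27e-08), while *TH*, *DDC* and *DBH* had at most 11 counts in any library. The glycine transporter *SLC6A9* was called as fallen in both lines, from 194 and 153 counts to 18 and 22 in 451Lu-R (-3.09, adjusted p = 1.11e-11) and from 77 and 72 to 12 and 12 in 1205Lu-R (-2.62, adjusted p = 8.56e-09). None of 7 receptor kinases and arrestins was called in either line.

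Returning to the RE1 matches, *GRIN1* and *GRIA2* were called as risen in both lines. *CHRNB2* rose in 451Lu-R below the 4-fold limit, and *HTR5A*, with 3 matches, had 4 counts in 1 corin library of 451Lu-R and none in the other 7 libraries. A match was held by 2 of 15 receptor genes called as risen in both lines (13.3%), by 3 of 33 called in at least 1 line (9.09%) and by 3 of 58 called in neither (5.17%), so most called receptor genes held none in this window. The promoter sequences of RefSeq (GRCh38.p14, 250 bases before to 50 after the start) were matched for 69 of the 95. The E-box read by SNAI and ZEB factors (CAGGTG or CACCTG) was in 16 of 69 (23.2%) beside 19.5% of protein-coding genes, and the AP-1 letters TGANTCA in 4 (5.8%) beside 5.54%. The ratio of observed to expected CpG was at least 0.6 in 40 of 69 promoters (58.0%), in 19 of the 23 called as risen in at least 1 line (82.6%) and in 21 of the 46 others (45.7%), beside 70.8% of protein-coding genes. These shares are descriptions with no test.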

How the data were processed

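Estimated counts per gene were deposited for 8 corin and DMSO libraries. Per the labels and the series' design text, the authors trimmed reads with Trimmomatic and quantified them with Salmon against the GENCODE 32 transcriptome to give these expected counts, summed to genes and not normalized. Versions are not given in the sources used here. Tables for PLX4032 plus corin against PLX4032 hold only the authors' DESeq2 fold changes and adjusted p-values and were not used, and those 8 samples are not analysed here.

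Counts were rounded. Symbols, exons and coordinates came from GENCODE 44 (GRCh38), which matched 34052 of 34228 genes, and exons of 34 of the 95 receptor genes overlap another gene. Comparisons used edgeR 4.0.16 in R 4.3.3 (filterByExpr, TMM, quasi-likelihood F test, 2-sided, Benjamini-Hochberg over all genes tested), checked on simulated counts. SE was taken as the log2 fold change over the root of F. Bounds use a floor of 3 counts over a group. Chi-square over degrees of freedom between replicate counts was 1.34 to 1.40. The sources do not say that replicates were separate cultures, so p-values measure only the spread between these libraries, which may be technical. Total counts of 9516687 to 11797788 per library limit the precision for scarce genes.

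The receptor genes, lists and tests were chosen with earlier results of these data known. The text names, per line, up to 12 called members with the largest change and at least 1 CPM, members that average 10 CPM or more, the highest member per family, the 5 largest differences between lines and in response, members that fell, and genes set by name. Some receptor genes enter the counts and sums but are not reported here by name. *GABRG3*, *GRIA1*, *HTR5A* and *HTR6* were named besides these after their values were seen. Alternatives were DESeq2 1.42.0, other normalizations, filters and thresholds, a replicate block, all libraries in 1 fit, and leaving out each library.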

Additional observations from a re-analysis of the deposited data

Results flagged for a closer look

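The difference in response to corin between the lines passed an FDR of 0.05 for 17 of the 32 named receptor genes (edgeR, interaction of line and treatment, log2 response in 1205Lu-R minus that in 451Lu-R). Over all genes tested, 22.6% passed it upward and 27.1% downward. The 32 were named in part for large changes in these data, so the count of 17 says nothing particular to receptor genes. For 7 of the 17, no group was at or under 3 counts. The response in 1205Lu-R was lower for *DRD2* (-4.44, adjusted p = 2.41e-11), *GABRD* (-3.16, adjusted p = 3.75e-07), *CHRM3* (-2.02, adjusted p = 1.13e-06), *HTR7* (-1.85, adjusted p = 4.82e-09) and *CHRNA5* (-0.46, adjusted p = 0.0167). It was higher for *GRIK4* (3.5, adjusted p = 3.19e-05) and *CHRNA7* (2.49, adjusted p = 7.02e-06). Of these 7, *DRD2* and *GRIK4* moved in opposite directions in the lines, each past an FDR of 0.05 in both. Among the rest of the 17, *GABBR2* and *ADRA1B* also did so, being called as risen in 451Lu-R and falling in 1205Lu-R at an FDR under 0.05.

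For the other 10, at least 1 group had 3 or fewer counts, so the fitted size depends on the prior count and is no bound. It was negative for *GRIN2A* (-8.32, adjusted p = 6.87e-08), *GABBR2* (-8.26, adjusted p = 2.54e-12), *HTR1D* (-6.79, adjusted p = 8.3e-05), *ADRA1D* (-6.64, adjusted p = 5.59e-05), *ADRA1B* (-6.47, adjusted p = 5.07e-08), *GRIN2D* (-5.2, adjusted p = 0.000102) and *GRIN1* (-4.3, adjusted p = 0.0374). It was positive for *CHRNA6* (6.93, adjusted p = 0.000688), *CHRNB2* (3.94, adjusted p = 0.0368) and *ADRB1* (3.22, adjusted p = 0.0203). Groups of 2 libraries are too small to look for single libraries far from the rest.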

How the results depend on the processing

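The counts of receptor genes called as risen with corin were 29 (451Lu-R) and 22 (1205Lu-R), and stayed within 1.5 times under the other tools, normalizations, filters and thresholds, down to 23 and 17 with DESeq2. With each library left out in turn they ran from 26 to 29 and from 20 to 21. In alternatives added after seeing the data, restricting to protein-coding genes with at least 10 counts in both DMSO libraries left 3 and 4, and those with 3 or fewer counts over them left 20 and 10. The count called as fallen, 0 in both lines, became 3 in 451Lu-R at an FDR under 0.05. In 1205Lu-R it became 1 with DESeq2, 1 without a filter, 3 at 2-fold and FDR under 0.01 and 4 at an FDR under 0.05, and ran from 0 to 1 with a library left out. The 1 was *GRIN2D*, at 3.95-fold in the main comparison, without 1205Lu-R DMSO replicate 2 or corin replicate 1. For the difference in response, 4 and 9 became 9 and 15 at an FDR under 0.05, and ran from 3 to 4 and from 6 to 10 with a library left out. Detected genes with at least 1 CPM in both libraries numbered 16, 42, 15 and 35, and with more than 3 counts 21, 56, 24 and 43, in 451Lu-R and 1205Lu-R with DMSO and corin. Per kb of the longest transcript, 3 of the 5 highest levels in 451Lu-R with DMSO were among the 5 highest per kb of exon.

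Of 1081 alternative values for single named genes, 1027 kept direction and side of the threshold, 39 lost the call, 5 gained it and 10 changed sign. Sign changes concerned *HTR7* in 1205Lu-R (0.01; -0.02 with DESeq2, -0.04 without a filter and -0.01 with a library left out), *GABBR1* between lines with DMSO (-0.10; from -0.21 to 0.03 with libraries left out, at 0.00 without 451Lu-R DMSO replicate 1 and 0.03 without 1205Lu-R DMSO replicate 1) and the difference in response of *ADRA2A* (-0.18; 0.02 with library size only, also without 1205Lu-R corin replicate 2, and with libraries left out from -1.09 to 3.0), none of which passed its threshold. The cause was not tested.

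Same-numbered libraries deviated together with correlations of 0.015 and 0.012, so replicate numbers were not taken as pairs. With the replicate block, 27 and 22 receptor genes were called as risen, 0 and 0 as fallen, 10 and 9 as higher and lower in 1205Lu-R with DMSO, and 3 and 10 in the difference. Depth limits what can be said of the 46 genes detected in no group.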
